A study of Mus musculus with 6 samples.

Results

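Mitochondria carry their own ribosome, built from RNAs of the mitochondrial genome and from proteins encoded in the nucleus, made in the cytosol and imported. It translates the few respiratory chain proteins that the mitochondrial genome encodes. Its large subunit (Mrpl genes) joins amino acids and threads the new chain out towards the inner membrane, and its small subunit (Mrps genes) reads the messenger RNA. In skeletal muscle, which holds many mitochondria, these proteins are needed to build the respiratory chain. The genes described here are all rows of the count tables whose symbol is Mrpl or Mrps followed by a number and at most 1 letter from a to c, with rows at 0 in every library to be dropped. The rule found 77 genes among 23282 rows, 48 named for the large and 29 for the small subunit, and none of them was at 0 throughout.

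RNA was sequenced from gastrocnemius muscle of 6 wild-type (WT) C57/BL6J male mice aged 20 months, 3 given inotodiol and 3 given vehicle. Inotodiol, a triterpenoid of the chaga mushroom, was given by mouth each day at 0.35 mg/kg for 10 weeks, and the vehicle was a mixture of polyethylene glycol, Tween 80 and saline. The title names muscle wasting with age, the function of mitochondria and a liver X receptor, and the comparison here asks whether transcripts for the mitochondrial ribosome differ between treated and untreated old muscle. There was no group of young mice, and both groups were old.

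Libraries held 8961893 to 9953764 counts. All 8 muscle fibre markers were detected, at a summed 160000 to 168100 CPM (counts per 1000000 of the library) in vehicle and 152700 to 167100 in inotodiol libraries. The precursor ribosomal RNA Rn45s took 3.97% to 6.82% of the counts in vehicle libraries and 4.33% to 10.2% in inotodiol libraries. Liver transcripts were present: 10 of 10 hepatocyte markers were detected, at a summed 14.4 to 76.6 CPM in vehicle and 91.9 to 578 CPM in inotodiol libraries, with all 9 tested above 0 (median log2 fold change 2.90). The 578 CPM was in inotodiol 1. In the same library the 8 exocrine pancreas markers, of which 0 were tested, summed to 102.5 CPM, against 0.62 to 2.49 CPM in the other libraries. None of the 6 fibroblast markers was above 0 (median -0.68), and all 5 erythroid markers were (median 0.54), with a summed 5610 to 7964 CPM in vehicle and 4374 (inotodiol 3) to 13980 CPM in inotodiol libraries. The part of these cells in the results below was not tested. In bulk tissue, fewer cells of a type and less RNA per cell cannot be told apart. Below, CPM are scaled by TMM, which sets the bulk of genes equal between libraries, unless said otherwise.

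The promoters of these genes are shown first, because many mitochondrial genes of the nucleus are known targets of the factors NRF1, YY1 and the ETS family member GABP. RefSeq promoters (GRCm38.p6), 250 bases before to 50 bases after the start, were found for 68 of the 77 genes. The following 4 stretches end at the last base before the RefSeq start and run 5′ to 3′ on the gene's strand; capitals mark letters that match a searched motif on either strand. Mrpl12 (chr11:120484487-120484636, plus strand) and Mrpl30 (chr1:37890327-37890476, plus strand) are shown because both were among the 6 genes with the smallest p on the higher side and hold the same NRF1 letters at nearly the same distance from the start, bases -81 to -72 and -83 to -74.
Mrpl12: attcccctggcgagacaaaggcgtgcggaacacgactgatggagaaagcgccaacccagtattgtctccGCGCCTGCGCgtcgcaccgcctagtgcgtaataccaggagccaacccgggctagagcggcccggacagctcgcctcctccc
Mrpl30: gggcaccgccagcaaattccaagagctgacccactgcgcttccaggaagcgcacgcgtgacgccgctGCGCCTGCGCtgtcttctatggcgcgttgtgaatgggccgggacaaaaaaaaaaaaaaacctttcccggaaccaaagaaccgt
Mrpl34 (chr8:71464776-71464925, plus strand) is shown for ETS letters in a highly expressed gene, and Mrpl43 (chr19:45006443-45006592, minus strand) for 2 matches in a gene on the lower side.
Mrpl34: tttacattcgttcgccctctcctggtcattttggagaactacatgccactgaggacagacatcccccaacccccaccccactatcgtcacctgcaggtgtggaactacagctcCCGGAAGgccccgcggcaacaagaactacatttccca
Mrpl43: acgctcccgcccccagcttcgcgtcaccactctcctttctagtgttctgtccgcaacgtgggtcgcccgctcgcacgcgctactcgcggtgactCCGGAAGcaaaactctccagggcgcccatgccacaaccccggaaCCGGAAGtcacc

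Both strands of the 300-base window were searched. The 68 genes had 74 promoters, and a gene was counted if any of its promoters matched. The ETS letters CCGGAAG were found in 25 of the 68 genes (36.8%), against 20.0% of the 8897 genes tested with a promoter and 9.93% of all 27025 genes with a promoter. The NRF1 letters (GCGCA, any base, then GCGC) were found in 13 (19.1%), against 11.7% and 5.19%. The YY1 letters AANATGGCG were found in 10 (14.7%), against 6.17% and 2.76%. At least 1 of the 3 was found in 41 of 68 (60.3%), against 32.8% of genes tested with a promoter. By subunit, NRF1 letters stood in 10 of 42 large and 3 of 26 small subunit genes with a promoter, and ETS letters in 14 of 42 and 11 of 26. These are matches of letters, not binding, and the difference between subunits was not tested. Members with ETS letters had a median log2 fold change (inotodiol over vehicle) of 0.14 (25 genes) and those without of 0.074 (43 genes). For NRF1 letters the medians were 0.080 (13) and 0.097 (55), and for YY1 letters 0.093 (10) and 0.089 (58). NRF1 letters also stood in genes on the lower side, such as Mrpl44 (-0.26) and Mrpl32 (-0.20), so Mrpl12 and Mrpl30 do not stand for all 13.

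Many of these genes share their start region with another gene. In GENCODE M21 (GRCm38), 26 of 77 (33.8%) start within 1000 bases of a protein-coding gene that runs the other way (starts that overlap by up to 500 bases included), against 13.6% of the 10908 protein-coding genes tested. Mrpl46 and Mrps11, a large and a small subunit gene on chromosome 7, are such a pair. Mrps12 faces Sars2, the mitochondrial seryl-tRNA synthetase gene, Mrpl36 faces Ndufs6 of respiratory complex I, Mrpl32 faces the proteasome gene Psma2, and Mrpl49 faces Fau, a cytosolic ribosomal protein gene. Exons of 15 members overlap those of a gene on the other strand, Mrpl36, Mrpl49, Mrpl27, Mrpl24 and Mrps7 among them, and Mrps6 overlaps Slc5a3 on the same strand. The counting is not stated to use strand, so the values of these 16 genes are uncertain. The 61 genes with no such overlap had a median log2 fold change of 0.10 with 39 above 0, beside 0.097 with 51 of 77 for all.

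**Figure D1:**
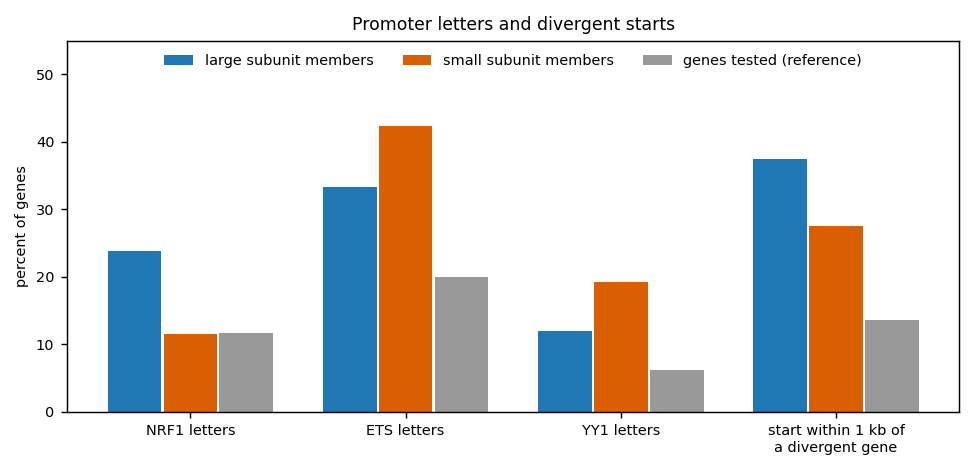
Percent of large subunit genes (blue), small subunit genes (orange) and a reference (grey) with each set of letters in the promoter, or with a start within 1 kb of a divergent gene. The reference is the 8897 genes tested with a promoter for letters and the 10908 protein-coding genes tested for starts. ETS letters were found for 36.8% of all members with a promoter, against 20.0%, and divergent starts for 33.8% of members against 13.6%.

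All 77 genes passed the filter on low counts. Mean levels ran from 1.27 to 171 CPM, and 75 of 77 had at least 5 CPM. Levels between genes are compared per kb of coding transcript (median length over the gene's basic GENCODE transcripts). Whether these counts rise with transcript length was not settled; across the 77 genes, which are not independent replicates, Spearman's rho of mean CPM with length was -0.18. The median level was 26.8 CPM per kb in the large subunit (quartiles 13.0 and 66.1) and 24.5 CPM per kb in the small (12.7 and 43.0), so the subunits overlapped over nearly their whole range.

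Mrps21, the homologue of bacterial S21, had the highest level per length in the small subunit, 383 CPM per kb, followed by Mrps15 with 79.0 and Mrps12 with 70.3 CPM per kb. In the large subunit Mrpl42 (259 CPM per kb), Mrpl34 (239) and Mrpl33 (183) were highest per length, the last pair being homologues of small bacterial proteins. Without the division by length the order was another: Mrpl42 (171 CPM) was followed by Mrpl18 (157 CPM), Mrpl51 (151 CPM) and Mrpl34 (145 CPM), with Mrpl33 at 87.6 CPM, and Mrps21 (171 CPM) by Mrps23 (76.1 CPM) and Mrps15 (74.0 CPM). Mrps27, an RNA-binding pentatricopeptide repeat protein, and Mrps26 were lowest per length in the small subunit, at 5.04 and 4.51 CPM per kb, while by CPM the lowest were Mrps11 (9.20 CPM) and Mrps27 (9.32 CPM), with Mrps26 at 19.3 CPM. Mrpl15 and Mrpl21, which encode conserved parts of the large subunit, were the lowest members on both scales, at 0.67 and 2.15 CPM per kb, followed per kb by Mrpl19 at 4.22 CPM per kb. The counts of Mrpl15 were 16, 10 and 24 in the vehicle mice and 11, 0 and 13 in the treated mice, where the 0 allows up to 0.309 unscaled CPM (3 counts, counting error only). Mrpl21 had 12, 39 and 18 counts in vehicle and 22, 16 and 11 in inotodiol libraries. By CPM without the division by length, the next lowest member was Mrpl9 with 8.86 CPM.

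**Figure D2:**
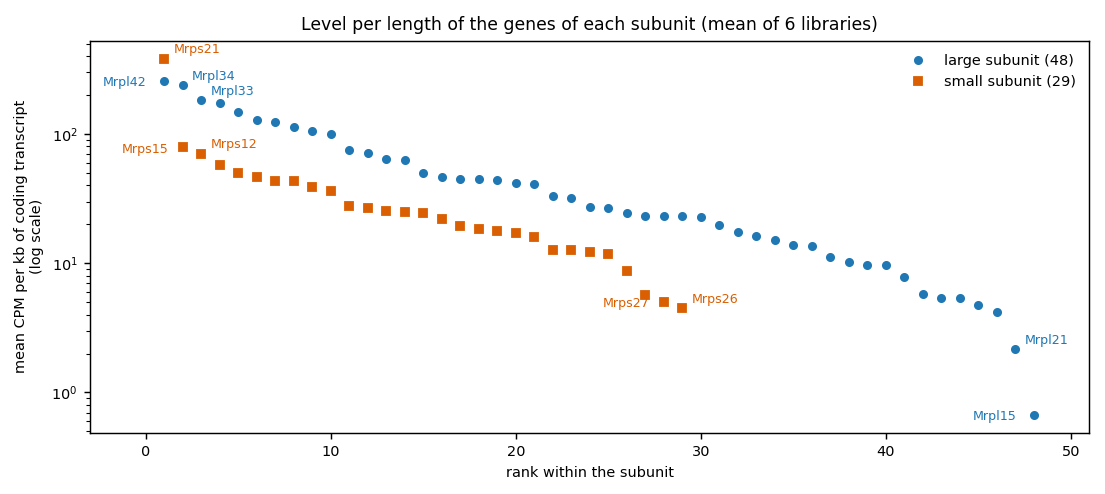
Mean CPM per kb of coding transcript over 6 libraries (log axis) by rank within the subunit, with large subunit genes as blue circles and small subunit genes as orange squares. Mrps21 leads at 383 CPM per kb, and Mrpl21 (2.15) and Mrpl15 (0.67) lie under all other members.

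The spread within groups was low: the median coefficient of variation was 12.1% over the 77 members and 22.7% over the 10609 genes tested with a mean CPM in the members' range. Counting error alone gave medians of 5.60% and 9.17%, so the members also had deeper counts, and their spread was not compared at matched depth. The lowest spreads were those of Mrpl17 (4.89%), Mrpl16 (4.90%) and Mrps2 (4.96%). The highest were those of Mrps28 (60.1%), Mrpl21 (57.5%) and Mrpl15 (53.9%). Mrps28, the counterpart of bacterial S1, is no low-count case: it had 94, 106 and 294 counts in vehicle and 45, 126 and 144 in inotodiol libraries, with vehicle 3 high and inotodiol 1 low.

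No single gene of the mitochondrial ribosome passed the test between inotodiol and vehicle. None of the 77 members, and none of the 11700 genes tested (0%), passed an adjusted p of 0.05 in edgeR's quasi-likelihood test, and the smallest adjusted p among members was 0.96. At an unadjusted p under 0.05 there was 1 member, Mrpl4 on the higher side, against 4.87% of all genes tested (2.67% higher and 2.21% lower), and DESeq2 and limma-voom likewise gave 0 members adjusted and 1 unadjusted. Without inotodiol replicate 2 the unadjusted count was 6 of 77. That run tested 12135 genes, and its share of all genes under 0.05 is not given here, so the 6 cannot be weighed. For 74 of the 77 genes the 95% interval excluded both a 2-fold rise and a 2-fold fall, and for 40 of them a 1.5-fold change either way. The exceptions at 2-fold were Mrps28 and the low-count genes Mrpl15 and Mrpl21. P-values measure the spread among 3 animals a group, with each gene's spread moderated by that of all genes tested.

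As a group, most members leaned to the higher side by a small amount. Among runs with 1 library left out, it was smallest without inotodiol replicate 3. Of 77 log2 fold changes 51 were above 0 (66.2%), against 49.9% of all genes tested, and the median was 0.097 against -0.00073 over all genes. The large subunit had 30 of 48 above 0 with a median of 0.089, and the small subunit 21 of 29 with a median of 0.11. Without inotodiol replicate 3 the members' median was 0.017 with 44 of 77 above 0 (57.1%), and the subunit medians were 0.029 and 0.011. Without vehicle replicate 3 the members' median was 0.059. With library totals in place of TMM the median of all genes moved to -0.12, and the members' median turned to -0.020 with 35 of 77 above 0 (21 of 48 large and 14 of 29 small subunit genes), which is still 0.099 above that of all genes.

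The mean log2 levels by library also set inotodiol 3 apart. The mean log2 CPM of large subunit genes was -0.037, 0.019 and -0.027 relative to the mean of 6 libraries in vehicle 1 to 3 and -0.012, -0.072 and 0.13 in inotodiol 1 to 3. That of small subunit genes was -0.11, -0.028 and 0.019 in vehicle and -0.078, -0.024 and 0.22 in inotodiol. In both subunits inotodiol 3 was highest, and inotodiol 1 and 2 lay within or under the vehicle range, so the groups overlapped. The only value under that range, -0.072 for the large subunit in inotodiol 2, includes Mrpl15 at 0 counts. The part of Mrpl15 in that mean was not tested. Inotodiol 3 held the highest CPM for 35 of the 77 members (45.5%), 18 large and 17 small subunit genes, against 19.7% of all genes tested, and the lowest for 4. In that library the 5 Schwann cell markers summed to 184 unscaled CPM, against 67.1 to 91.8 in the other libraries, the muscle fibre markers were at their lowest (152700), and Rn45s took 4.33%; their part in the members' level was not tested.

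Summed over the 77 genes, the ribosome took 3716, 3545 and 3780 CPM of all counts in vehicle 1 to 3 and 3370, 3407 and 4186 in inotodiol 1 to 3, so that inotodiol libraries were both the lowest and the highest. With Rn45s left out of the totals the order was the same, at 3870, 3804 and 3953 against 3752, 3767 and 4375 CPM. Scaled by TMM the sums were 3507, 3537 and 3563 CPM in vehicle and 3640, 3668 and 4092 in inotodiol libraries, and the groups then did not overlap. The order of the groups in summed level thus depended on the scaling.

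**Figure D3:**
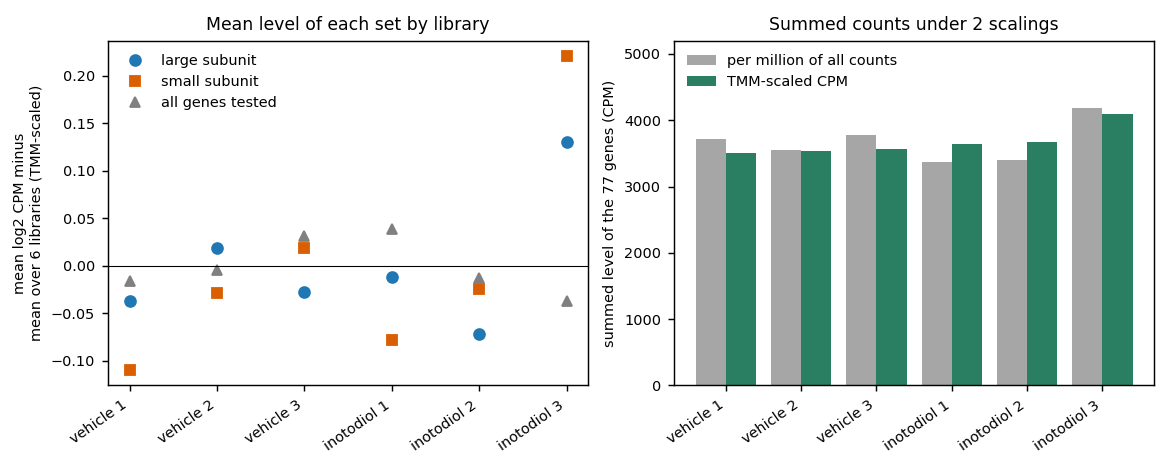
Left, mean log2 CPM (TMM-scaled) of large subunit genes, small subunit genes and all genes tested in each library, minus the mean over 6 libraries. Right, summed level of the 77 genes as CPM of all counts (grey) and as TMM-scaled CPM (green); inotodiol 3 is highest in both panels for the ribosome, and inotodiol 1 and 2 have the lowest grey bars but not the lowest green bars.

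In the balance of large to small subunit transcripts the groups overlapped. The summed counts of large subunit genes were 2.14, 2.16 and 2.10 times those of small subunit genes in vehicle 1 to 3 and 2.16, 2.14 and 2.02 times in inotodiol 1 to 3. The group means were 2.13 ± 0.033 and 2.11 ± 0.077 (SD, n = 3), a difference under the spread within the inotodiol group. On the scale of mean log2 CPM per gene, large minus small was 0.18 ± 0.062 in vehicle and 0.14 ± 0.081 in inotodiol muscle, a shift of -0.048. A filter of at least 1 CPM in all 6 libraries dropped the low-count Mrpl15 and left 47 large subunit genes. The shift was then -0.021. Symbols do not always match the place of a protein: Mrps18a and Mrps30 are known to sit in the large subunit, and Mrps36 is now counted with the oxoglutarate dehydrogenase complex. With these moved or left out the shift was -0.042 and the medians of log2 fold change were 0.089 (large, 50 genes) and 0.097 (small, 26 genes).

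Among large subunit genes, Mrpl4 (chromosome 9, 21002738 to 21008839) had the smallest p. It is the homologue of bacterial L4, which lines the tunnel through which the new protein leaves. Mrpl4 had 52.7, 42.8 and 43.2 CPM in vehicle and 51.8, 59.1 and 73.8 CPM in inotodiol libraries, so the groups overlapped at vehicle 1 and inotodiol 1. Its log2 fold change was 0.41 ± 0.18 (SE; 95% interval 0.037 to 0.79; edgeR adjusted p = 0.96), and 0.26 without inotodiol replicate 3. Mrpl49 had 26.9, 18.1 and 18.2 CPM in vehicle and 25.6, 23.4 and 38.5 in inotodiol libraries, where inotodiol 3 stood apart. Its log2 fold change was 0.47 ± 0.24, and 0.22 without inotodiol replicate 3. Mrpl30 had 64.4, 70.2 and 85.9 CPM in vehicle and 89.3, 79.0 and 103 in inotodiol libraries, with overlap at vehicle 3 and a log2 fold change of 0.30 ± 0.16.

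The stalk of the large subunit, which draws translation factors to the ribosome, gave unlike values. Mrpl12 (chromosome 11, 120484613 to 120489065), the stalk protein that also binds the mitochondrial RNA polymerase, had 82.2, 87.6 and 83.8 CPM in vehicle and 112, 92.2 and 103 CPM in inotodiol libraries. All 3 inotodiol values lay above all vehicle values, with a log2 fold change of 0.27 ± 0.14 (95% interval -0.027 to 0.58; edgeR adjusted p = 0.96) and a range of 0.21 to 0.34 with single libraries left out. The base of the stalk did not share this order: Mrpl10 had 28.5, 29.2 and 32.8 CPM in vehicle and 26.4, 31.5 and 32.3 in inotodiol libraries, and Mrpl11 had 46.4, 44.5 and 46.7 against 46.7, 36.8 and 46.6. Their log2 fold changes were -0.0055 ± 0.18 and -0.081 ± 0.16.

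Around the exit of the tunnel, 4 of 7 genes were above 0. Mrpl45, which holds the ribosome to the inner membrane, had 56.3, 67.7 and 61.9 CPM in vehicle and 82.4, 69.9 and 56.9 in inotodiol libraries, so that inotodiol 3 was the lowest of its group here. Its log2 fold change was 0.17 ± 0.17, and 0.033 without inotodiol replicate 1. Mrpl23 had 41.5, 33.6 and 43.7 CPM in vehicle and 47.5, 42.5 and 52.9 in inotodiol libraries (0.27 ± 0.17), and Mrpl24 stood at 0.20 ± 0.16. Mrpl44, which resembles the RNA-cutting enzyme RNase III, was even in vehicle (16.9, 17.3 and 17.4 CPM) and spread in inotodiol libraries (17.9, 14.9 and 10.4 CPM), with inotodiol 3 lowest and a log2 fold change of -0.26 ± 0.24.

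On the lower side of the large subunit, Mrpl40 (chromosome 16, 18872018 to 18876862), a protein with no bacterial counterpart, had 25 to 26 CPM in the 3 vehicle libraries and 21.3, 23.3 and 19.7 in inotodiol libraries. The groups did not overlap, at a log2 fold change of -0.24 ± 0.18. Mrpl27, whose bacterial homologue reaches the site of peptide bond formation, had 26.9, 24.8 and 30.5 CPM against 18.9, 24.0 and 25.3, with overlap and a log2 fold change of -0.27 ± 0.20. Mrpl43 had 54.7, 69.2 and 60.2 CPM against 51.4, 57.9 and 48.6 (-0.22 ± 0.16). Mrpl3, a homologue of bacterial L3, stood at -0.12 ± 0.26. Mrpl42, Mrpl34 and Mrpl33, the most abundant per length, stood at -0.0013 ± 0.14, 0.20 ± 0.14 and 0.081 ± 0.14.

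Among small subunit genes, Mrps15 (chromosome 4, 126046925 to 126055532), a homologue of bacterial S15, which binds the ribosomal RNA early in assembly, had the smallest p. It had 65.2, 58.2 and 71.0 CPM in vehicle and 74.0, 71.9 and 104 CPM in inotodiol libraries, without overlap, although inotodiol 2 was less than 1 CPM above vehicle 3. The log2 fold change was 0.36 ± 0.17 (95% interval -0.010 to 0.73; edgeR adjusted p = 0.96), and 0.17 without inotodiol replicate 3. Mrps17 (chromosome 5, 129715497 to 129722556) had 30.1, 27.0 and 27.6 CPM in vehicle and 35.7, 33.1 and 36.2 in inotodiol libraries. Here all 3 inotodiol mice were above all vehicle mice by a like amount, with a log2 fold change of 0.31 ± 0.17 and a range of 0.28 to 0.36 with single libraries left out. Mrps16 had 48.6, 55.4 and 47.7 CPM in vehicle and 56.6, 56.6 and 71.9 in inotodiol libraries, also without overlap (0.29 ± 0.16).

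Mrps2 (chromosome 2, 28468066 to 28471178), the homologue of bacterial S2, was the small subunit gene without overlap on the lower side. It had 29.8, 29.8 and 26.6 CPM in vehicle and 23.8, 24.1 and 23.9 in inotodiol libraries, a log2 fold change of -0.27 ± 0.18 (edgeR adjusted p = 0.96). Mrps28 had the lowest log2 fold change of its subunit, -0.58 ± 0.43, which turned to 0.072 without vehicle replicate 3. Mrps10 had 17.8, 23.1 and 18.5 CPM in vehicle and 15.9 to 18 CPM in inotodiol libraries, with overlap at vehicle 1 (-0.23 ± 0.21). Mrps12, the homologue of bacterial S12 at the decoding centre, stood at 0.11 ± 0.17 and Mrps7, a homologue of bacterial S7, at 0.048 ± 0.17. Mrps22, Mrps34 and Mrps27, which bacteria lack, stood at -0.085 ± 0.19, 0.11 ± 0.17 and 0.084 ± 0.30, and Mrps21 at 0.18 ± 0.13.

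Mammals hold 3 relatives of bacterial S18, each in a different place of the ribosome, and all 3 had positive values that did not pass the test. Mrps18a had 31.4, 29.0 and 35.7 CPM in vehicle and 36.7, 27.5 and 49.9 in inotodiol libraries, and Mrps18b had 37.2, 27.7 and 34.2 against 38.3, 36.7 and 44.3. Mrps18c had 10.0, 15.1 and 22.5 CPM against 15.5, 16.6 and 22.6. Its spread within the vehicle group (SD 6.28 CPM) was wider than the difference between the group means of 15.9 and 18.3 CPM. The log2 fold changes were 0.25 ± 0.21, 0.27 ± 0.18 and 0.20 ± 0.29. Without inotodiol replicate 3 that of Mrps18a was 0.00048, and without vehicle replicate 1 that of Mrps18c was -0.042. Mrps30 and Mrps36 stood at -0.062 ± 0.16 and 0.23 ± 0.20.

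In all, 7 members lay higher and 2 lower without overlap between the groups, which is 9.09% and 2.60% of 77, against 5.15% and 5.26% of all genes tested. Mrpl12, Mrpl16, Mrpl2 and Mrpl17 of the large and Mrps15, Mrps17 and Mrps16 of the small subunit were the 7 higher, and Mrpl40 and Mrps2 the 2 lower. All of these 9 but Mrpl40 have a counterpart in bacteria. Of the 47 members with one, 33 were above 0 (median 0.11), and of the 30 without, 18 (median 0.077); the difference was not tested.

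**Figure D4:**
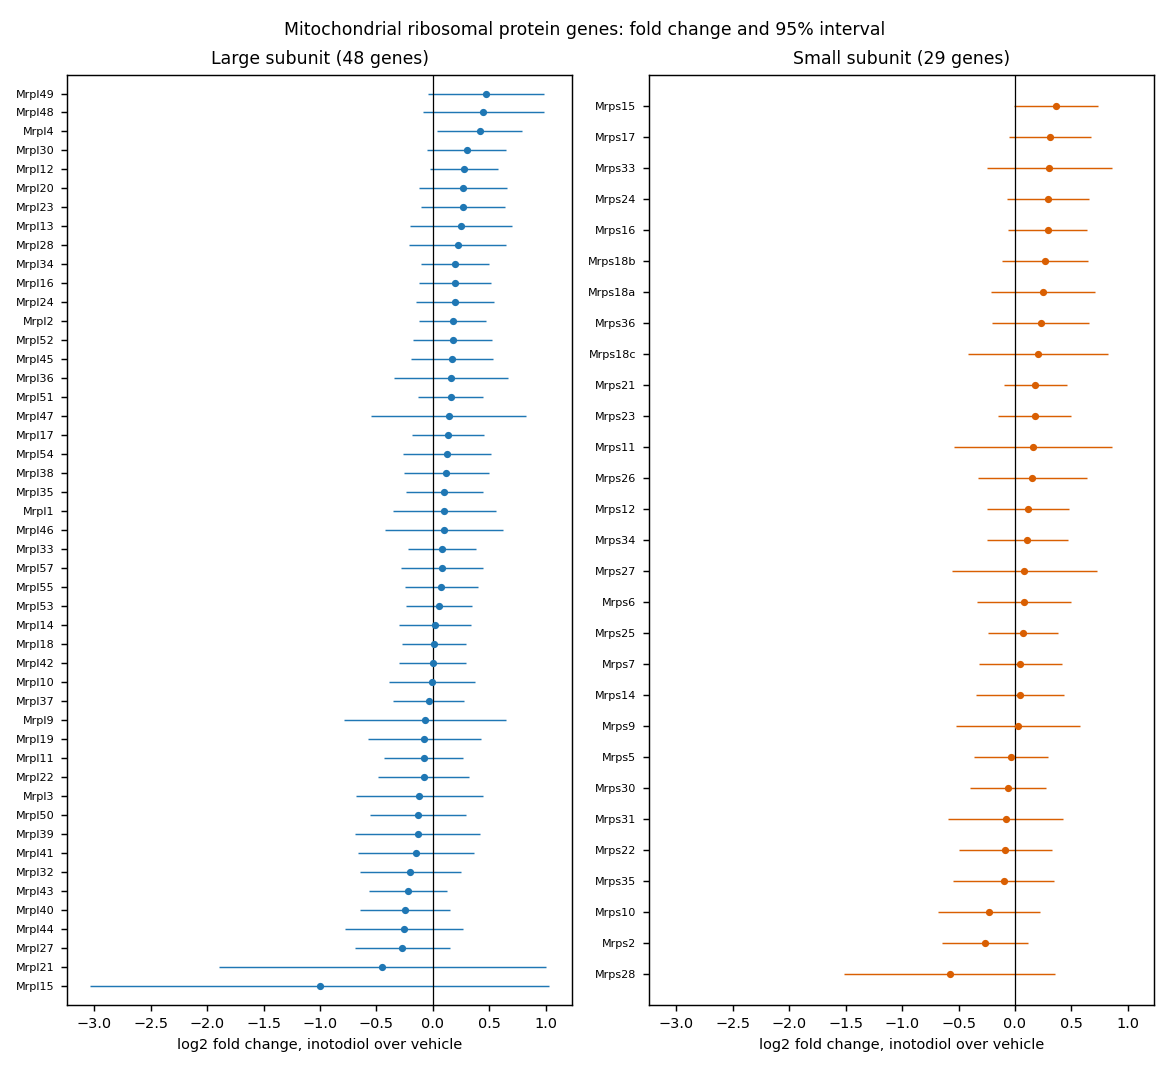
Log2 fold change of inotodiol over vehicle with its 95% interval for the 48 large (left) and 29 small subunit genes (right), ordered by value. The interval of Mrpl4 alone excludes 0, and those of Mrpl15, Mrpl21 and Mrps28 are widest.

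**Figure D5:**
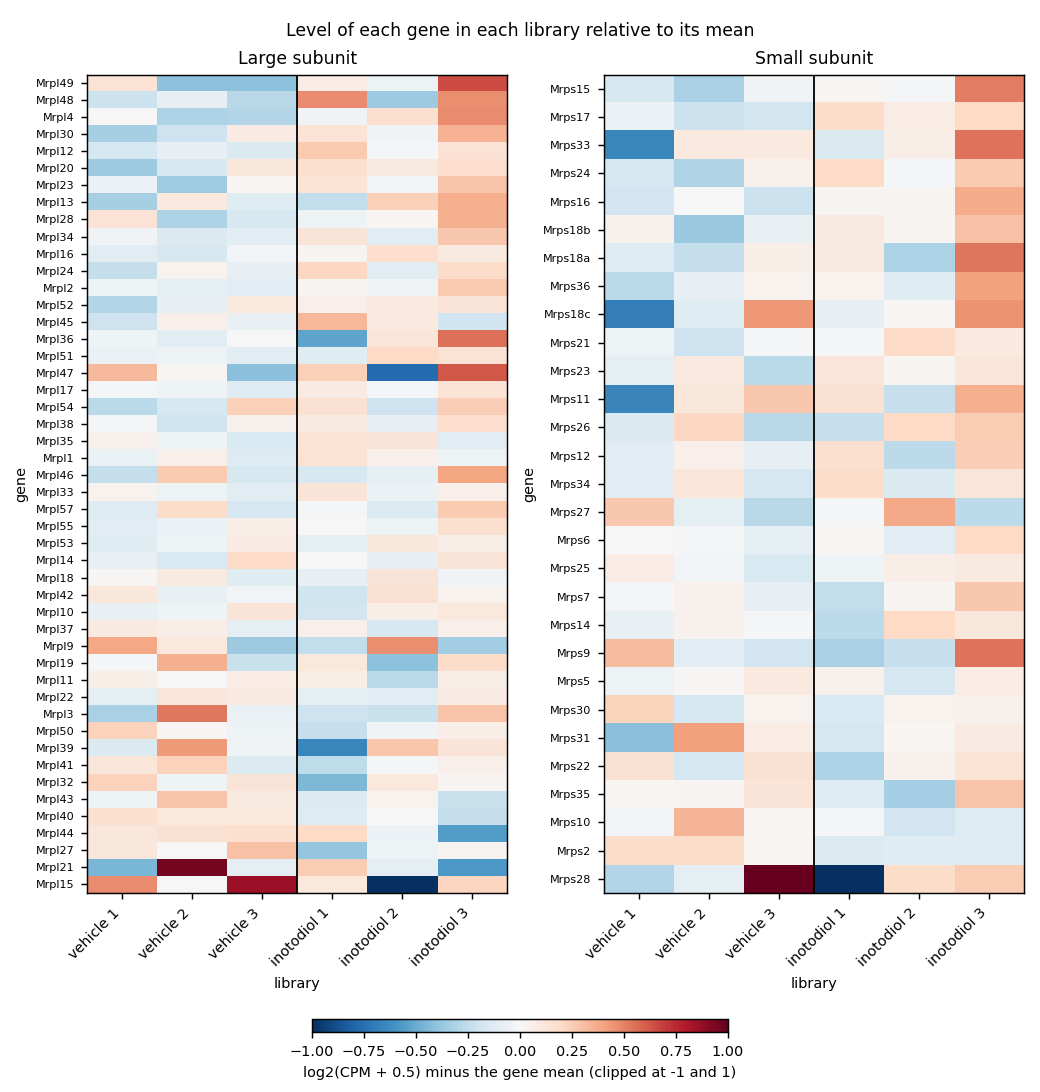
Level of each gene in each library as log2(CPM + 0.5) minus the gene's mean, red above and blue below, with vehicle left and inotodiol right of the line. The inotodiol 3 column is mostly red, the highest library for 35 of 77 genes.

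Other parts of the mitochondrial translation machinery were read from lists of known genes. Of the 6 ribosomal proteins with other symbols, 5 were above 0 with a median of 0.19 and none passed the test. The counts of Gadd45gip1, Dap3 and Chchd1 are uncertain without strand. Gadd45gip1, a large subunit protein, had 126, 136 and 145 CPM in vehicle and 149, 136 and 214 in inotodiol libraries, a log2 fold change of 0.30 ± 0.17 that was 0.072 without inotodiol replicate 3. Aurkaip1, the 1 of the 6 that lay higher without overlap (16.7%, against 5.15% of all genes tested), stood at 0.26 ± 0.16. Ict1, which frees chains from stalled ribosomes, stood at 0.25 ± 0.20, Ptcd3 at 0.12 ± 0.17, Chchd1 at 0.011 ± 0.15 and Dap3 at -0.14 ± 0.17. Again inotodiol 3 was the highest library, at 0.31 above the mean of the 6 on the log2 scale.

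Of 26 assembly factors tested, 14 were above 0 (median 0.020) and none had an unadjusted p under 0.05. Mtg2, a GTPase of large subunit assembly, stood at 0.50 ± 0.28, the rRNA methyltransferase Mrm1 at 0.62 ± 0.35 and Wbscr16 at 0.39 ± 0.22. Without overlap between groups, 3 of the 26 lay higher (11.5%), Mrm1 and Wbscr16 among them, and 0 lower. The shares over all genes tested were 5.15% and 5.26%. Of 18 translation factors, 12 were above 0 (median 0.065). Mtif2, the initiation factor that brings the first transfer RNA to the small subunit, had 27.3, 29.0 and 29.5 CPM in vehicle and 16.4, 20.4 and 18.4 CPM in inotodiol libraries. All inotodiol values lay under all vehicle values, a log2 fold change of -0.63 ± 0.19 (edgeR adjusted p = 0.74). With single libraries left out it ranged from -0.71 to -0.56. Mtif2 was the 1 gene of the 18 with an unadjusted edgeR p under 0.05, which is 5.56%, near the 4.87% of all genes tested. The release factor gene Mtrf1 had 7.90, 10.7 and 8.25 CPM in vehicle and 4.99, 7.43 and 5.02 in inotodiol libraries, likewise without overlap (-0.62 ± 0.32). Mtif2 and Mtrf1 were the 2 of the 18 lower without overlap (11.1%, against 5.26% of all genes tested), and 0 were higher. Another release factor of the family, 2810006K23Rik, stood at 0.56 ± 0.32. Of 20 aminoacyl-tRNA synthetase and amidotransferase genes of mitochondria, 14 were above 0 (median 0.24) and none had an unadjusted p under 0.05; Yars2 stood at 0.49 ± 0.31, Rars2 at -0.55 ± 0.43 and Mars2 at 0.65 ± 0.51.

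Beside the members, nuclear genes of respiratory complex I, whose mitochondrial partners this ribosome makes, had 31 of 36 above 0 and a median of 0.15. Cytosolic ribosomal protein genes had 69 of 83 above 0 and a median of 0.12. With library totals the medians were 0.036 for complex I (27 of 36 above 0) and 0.0034 for the cytosolic ribosome (44 of 83). Without inotodiol replicate 3 the medians were 0.11 for complex I, 0.038 for the cytosolic ribosome and 0.017 for the mitochondrial ribosome, and the differences between these lists were not tested. These comparisons use the same 6 libraries.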

How the data were processed

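The authors deposited 1 table of whole-number read counts per gene symbol for each of 6 muscle samples, with no normalization that the values show. The tools Bowtie2 and bedtools and the build mm10 are named in the submitters' processing notes. Their versions, the annotation and the strand setting were not found in those notes or labels. A Lexogen Quant-Seq kit made the libraries, per the labels' protocols. Groups and replicates follow the sample titles. The members and gene lists were chosen with earlier results of these data known. Counts were filtered with filterByExpr (minimum count 10, minimum total 15; 11700 of 23282 rows kept), scaled by TMM and compared in edgeR 4.0.16 under R 4.3.3 with the two-sided quasi-likelihood test with group as the only term, Benjamini-Hochberg adjustment over all genes tested at 0.05, and a common biological coefficient of variation of 27.2%. Standard errors used the model's weights and its moderated quasi-dispersion. Mean log2 levels used a prior count of 2. The test was tried on simulated counts. Gene models are GENCODE M21. Named were the 6 members per direction with the smallest p, the 3 highest and 2 lowest per kb of each subunit, a set chosen by role, and the 3 smallest p of each neighbouring list, other structural proteins in full. Alternatives used other scalings, filters and tests (DESeq2 1.42.0, limma 3.58.1), a replicate block, runs without Rn45s and with single libraries left out. Libraries correlated at 0.943 to 0.950 within and 0.937 to 0.955 between groups.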

Additional observations from a re-analysis of the deposited data

How the results depend on the processing

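No member was called under any of the alternatives run. Over all genes, 82 were called with no filter, 25 without inotodiol replicate 3 (0 without each other library) and 1 with DESeq2, against 0; none of these was a member, and the cause was not tested. With library-total scaling, whose median over all genes was -0.12, the members' median log2 fold change was -0.020, the large subunit's -0.023 and the small subunit's -0.0027. With single libraries left out the members' median ranged from 0.017 to 0.13, the large subunit's from 0.029 to 0.12, the small subunit's from 0.011 to 0.16, and large minus small from -0.093 to -0.015. The replicate block gave a members' median of 0.080 and 0 calls. Deviations from the group mean correlated at -0.081, 0.108 and 0.0225 between same-numbered libraries, and at -0.127 to 0.097 between differently numbered ones. Not every library correlated best with its own number. With 3 libraries a group these values depend on each other, so they cannot decide whether the numbers mark pairs. Of 831 values of the 52 genes chosen by the naming rule (Mrpl16, Mrpl2 and Mrpl17, named for their lack of overlap, are not among them), 805 kept their direction and their side of the threshold and 26, of 14 genes, changed sign, with no call on either side. These were Chchd1 with upper-quartile scaling (-0.0012), the block (-0.0055), limma-voom (-0.0047) and library totals (-0.097), with library totals also Mrpl33 (-0.037), Mrps27 (-0.044), Mrps7 (-0.061) and Mrps34 (-0.0027), and with no filter Mrpl42 (0.0027). The others came from leaving out single libraries, where Mrpl42 ranged from -0.082 to 0.092, Mrps18c from -0.042 to 0.54, Mrps30 from -0.15 to 0.043, Chchd1 from -0.14 to 0.14, Mrpl21 from -0.76 to 0.22, Mrpl3 from -0.32 to 0.17, Mrps28 from -0.85 to 0.072, Mrps27 from -0.12 to 0.26, Mrpl10 from -0.061 to 0.081, Mrps22 from -0.18 to 0.039, Mrpl11 from -0.14 to 0.024 and Mrps7 from -0.092 to 0.17. Large minus small was not run with DESeq2, limma-voom, the robust option or the block. Mrpl15 and Mrpl21, under 5 CPM in every library, had counting errors of 28.5% and 22.5%, within spreads of 53.9% and 57.5%.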
